A study of Arabidopsis thaliana with 12 samples.

Results

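Of the 25941 genes in a root expression table of Arabidopsis thaliana, 154 carry an annotation that names a pectinesterase, a pectate lyase or a polygalacturonase, and these 154 genes are described here. They were taken by those 3 words in the protein description, so that proteins named as inhibitors or partners of the enzymes are included. The rule uses no measured value, though it was set with earlier results of these data known. By its description the set holds 40 genes named both pectinesterase and pectinesterase inhibitor, 23 named pectinesterase alone, 5 pectinesterase inhibitors, 26 pectate lyases, 53 polygalacturonases, 3 polygalacturonase 1 beta-like proteins and 4 polygalacturonase inhibitors. The double name is given to pectinesterases that carry an inhibitor-like PRO region, but these classes follow the wording and not the domains, and some genes named pectinesterase alone, such as PME1 and PME2, are known to carry the region too. The table annotates 3 of the 154, AT3G27990, AT1G07477 and AT5G06865, as long non-coding RNA, and only AT3G27990 of these was tested.

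Pectin is the gel-like matrix of the primary wall, and its main chain, homogalacturonan, is secreted with methyl groups on its galacturonic acid units. Pectinesterases (pectin methylesterases, PMEs) remove those methyl groups. The bared chain can bind calcium and stiffen, or it can be cut by polygalacturonases, which use water, and by pectate lyases, which break the chain by elimination. Inhibitor proteins bind pectinesterases, and other inhibitors with leucine-rich repeats bind polygalacturonases, mostly those of fungi. In roots this remodelling accompanies cell elongation, root hair outgrowth and the emergence of lateral roots.

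The data are RNA sequencing libraries of roots from seedlings of the Columbia-0 accession, grown on solid medium for 10 days. OX3 is 1 transgenic line that overexpresses the soybean gene GmVP2, which codes for a proton-pumping pyrophosphatase of the vacuole membrane, and it was set against the wild type. Each genotype received 6.25 µM phosphate (low) or 1250 µM phosphate (normal), giving 4 groups of 3 libraries: OX3 at low and at normal phosphate, and wild type at low and at normal phosphate. The sources used here do not give the promoter that drives GmVP2, and the level of GmVP2 itself was not analysed. Nor do they say whether replicates came from separate plants, so the p-values rest on a spread between samples that may be purely technical.

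Values are RPKM, read numbers scaled to gene length and library depth, as the authors deposited them. The recovered library totals were 17670350 to 20418541 reads, and 3 reads in a gene of 1 kb equal 0.147 to 0.170 RPKM. The first principal component separated low from normal phosphate and held 82.1% of the variance. Defining markers of root hair, endodermis, root cap and stele were detected, and the summed level of 5 shoot markers was 147 to 605 RPKM in these root libraries. One library, replicate 4 of the wild type at low phosphate, held reads of 11 weakly expressed members that the other 11 libraries nearly lacked. None of those 11 genes reached the minimum for the main test, and without that library 50 tested members instead of 51 were called in the wild type. Of all tested genes, 41.2% were called in the wild type without that library and 46% with it.

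A gene was tested when its mean over all 12 libraries reached 1 RPKM, which kept 86 of the 154 members and left 68 out. The test was limma on log2(RPKM + 1), fitted on all 18910 genes that passed the minimum. Here a gene counts as called, and is said to have risen or fallen, where its two-sided p after Benjamini-Hochberg adjustment was below 0.05. Of the 86 tested members, 6 had a mean under 1 RPKM in at least 1 group and passed through their level in others. In 3 of them, ADPG2 and PGIP2 included, both normal phosphate means were under 1 RPKM. All log2 changes below are on the log2(RPKM + 1) scale, which understates the change of weakly expressed genes.

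Roots expressed a few members strongly and most weakly. A mean of at least 100 RPKM was reached by 3 members, 35 lay between 10 and 100 RPKM, and 48 between 1 and 10 RPKM. ATPMEPCRA (AT1G11580, chromosome 1, 3888610 to 3890824 in TAIR10.1), a pectinesterase with the double name, averaged 245 ± 26.8 RPKM in OX3 and 233 ± 18.1 RPKM in the wild type at low phosphate (SD, n = 3). At normal phosphate it averaged 240 ± 10.8 RPKM in OX3 and 236 ± 18.2 RPKM in the wild type, and no comparison called it. The pectate lyase AT4G24780 and the pectinesterase PME3 were the other members above 100 RPKM.

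The summed level of the 154 members was lower at low phosphate. It was 1402 ± 14.3 RPKM in OX3 at low phosphate against 1792 ± 51.2 RPKM in OX3 at normal phosphate, and 1396 ± 6.89 RPKM in the wild type at low phosphate against 1666 ± 29.9 RPKM in the wild type at normal phosphate (SD, n = 3). Pectate lyases made up most of that gap. Their sum was 355 ± 9.11 RPKM in OX3 at low phosphate against 702 ± 37.7 RPKM in OX3 at normal phosphate, and 344 ± 4.4 RPKM in the wild type at low phosphate against 579 ± 30.9 RPKM in the wild type at normal phosphate. The 3 beta-like proteins summed to 51.7 ± 2.23 RPKM in OX3 at low phosphate against 113 ± 8.49 RPKM in OX3 at normal phosphate, with nearly the same pair of levels in the wild type, 51.2 ± 3.93 and 114 ± 0.215 RPKM. Pectinesterases with the double name moved the other way by a small margin, at 671 ± 20 RPKM in OX3 at low phosphate against 630 ± 28.1 RPKM in OX3 at normal phosphate, where the libraries of the 2 groups overlapped. In the wild type the same class stood at 680 ± 3.32 RPKM at low phosphate and 642 ± 12.5 RPKM at normal phosphate. These sums are levels without a test, and in bulk tissue fewer cells of a type and less RNA per cell cannot be told apart.

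**Figure D1:**
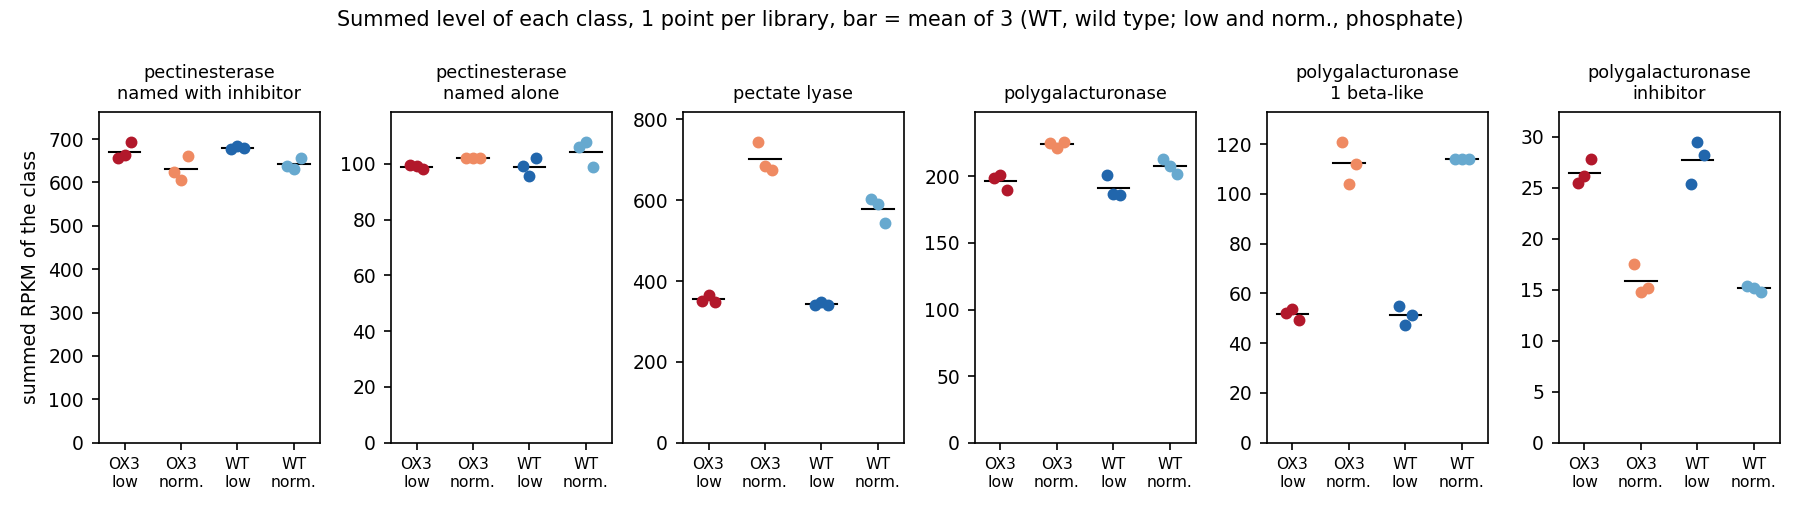
Summed RPKM of each class except the pectinesterase inhibitors (vertical axis of each panel, starting at 0) in the 12 libraries. OX3 lies left of the wild type, and low phosphate left of normal phosphate. Each point is a library and each bar the mean of 3. Pectate lyases and beta-like proteins were lower in every low phosphate library, polygalacturonase inhibitors were higher, and pectinesterases, split by whether the description also names an inhibitor, lay within a narrow range.

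The low phosphate response answers which members change when roots grow with little phosphate. In OX3, 25 of the 86 tested members rose and 26 fell, which is 59.3% called, and across all 18910 tested genes 47% were called in OX3, 23.3% higher and 23.8% lower. The wild type gave 26 members higher and 25 lower, again 59.3%, where 46% of all tested genes were called, 24.3% higher and 21.6% lower. The median change of the members was -0.06 in OX3 and 0.02 in the wild type, against -0.02 in OX3 and 0.02 in the wild type over all tested genes. Their median absolute change was larger than that of all genes, at 0.37 in OX3 and 0.32 in the wild type against 0.20 for all genes in each genotype. With a minimum absolute log2 change of 1 as well, 7 members were higher and 8 lower in OX3, where 7.88% of all tested genes met that rule, 4.53% higher and 3.35% lower. In the wild type 8 were higher and 5 lower, where 7.79% of all tested genes met it, 4.47% higher and 3.32% lower. The libraries of low and normal phosphate did not overlap for 32 members higher and 33 lower in OX3, against 57.4% of all tested genes, 27.6% higher and 29.8% lower. The wild type gave 28 higher and 27 lower, against 53% of all tested genes, 27.8% higher and 25.2% lower.

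Both genotypes called largely overlapping members. In both, 21 members rose and 21 fell, 26 passed in neither, and no member was called in opposite directions. Of 18858 tested genes whose promoter could be read, 3592 rose in both genotypes. The remaining counts were not made over all genes, so whether the overlap is particular to the members was not tested. In OX3 alone 4 members rose and 5 fell, and in the wild type alone 5 rose and 4 fell. Being called in 1 genotype alone is no test of a difference, and the test of the difference itself called none of the 86.

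**Figure D2:**
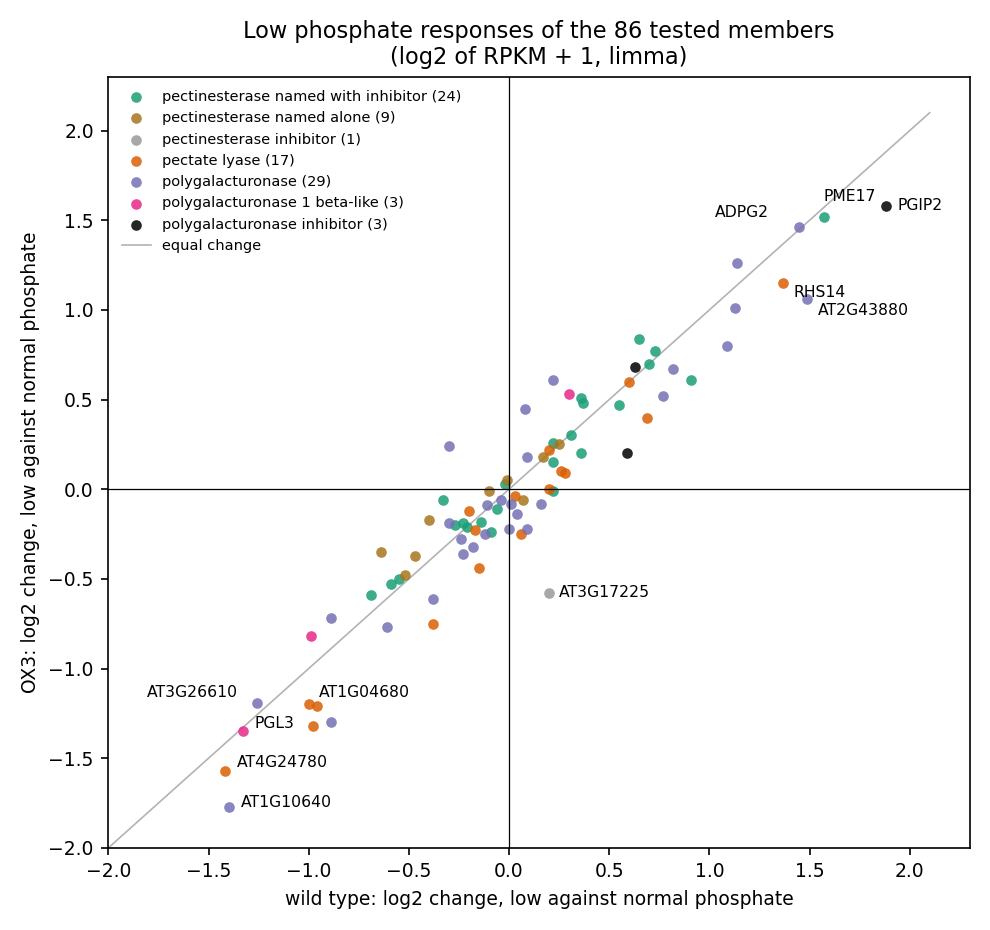
Log2 change at low against normal phosphate of the 86 tested members, wild type on the horizontal axis and OX3 on the vertical axis, coloured by class, with the line of equal change. The points run along the line from AT1G10640 (-1.40 in the wild type, -1.77 in OX3) to PGIP2 (1.88 in the wild type, 1.58 in OX3), and AT3G17225 lies apart from it.

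Among the pectinesterases named with an inhibitor, 24 of 40 were tested. In OX3, 9 rose and 4 fell, and in the wild type 9 rose and 6 fell, with median changes of 0.09 in OX3 and 0.22 in the wild type. PME17 (AT2G45220, chromosome 2, 18644061 to 18646606) had the highest log2 change of the class in both genotypes. It had 96.7, 77.7 and 78.5 RPKM in OX3 at low phosphate, against 26.5, 27.2 and 32.1 RPKM in OX3 at normal phosphate. Wild-type libraries had 105, 85.6 and 91.3 RPKM at low phosphate, against 30.4, 29.3 and 33.3 RPKM at normal phosphate. Every low phosphate library lay above every normal phosphate library. The log2 change was 1.52 ± 0.10 (SE) in OX3 (limma adjusted p = 1.19e-08) and 1.57 ± 0.10 in the wild type (limma adjusted p = 8.88e-09). The protease SBT3.5, a subtilase known to cut the PRO region from PME17, had 11.2 ± 0.93 RPKM in OX3 at low phosphate against 5.31 ± 0.493 RPKM in OX3 at normal phosphate. It rose by 0.95 in OX3 (limma adjusted p = 9.65e-07) and by 1.02 in the wild type (limma adjusted p = 4.52e-07). The other listed subtilases that process pectinesterases, SBT6.1 and SBT1.7, were not called.

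PME32 (AT3G43270) had 12.3, 12.4 and 13 RPKM in OX3 at low phosphate, against 8.8, 6.98 and 7.91 RPKM in OX3 at normal phosphate. The wild type had 15.1, 15.4 and 13 RPKM at low phosphate, against 7.42, 8.33 and 6.14 RPKM at normal phosphate. The groups did not overlap, and the gene rose by 0.61 in OX3 (limma adjusted p = 0.000188) and by 0.91 in the wild type (limma adjusted p = 4.3e-06). PME20 (AT2G47550) averaged 22.6 ± 2.87 RPKM in OX3 at low phosphate against 12.1 ± 0.665 RPKM in OX3 at normal phosphate, and 24.8 ± 6.37 RPKM in the wild type at low phosphate against 15.2 ± 1.52 RPKM in the wild type at normal phosphate. PME24 rose by 0.77 in OX3 and 0.73 in the wild type, and PME59 by 0.70 in each genotype. PME41, which has been linked to brassinosteroid-dependent chilling tolerance, rose by 0.30 in OX3 and 0.31 in the wild type.

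The members of the class that fell in both genotypes were PME7, AT5G09760, ATPMEPCRF and PME3. PME7 (AT1G02810) had 21.9, 20 and 16.9 RPKM in OX3 at low phosphate, against 28.7, 26.1 and 29.4 RPKM in OX3 at normal phosphate. The wild type had 21.9, 21.9 and 26.2 RPKM at low phosphate, against 32, 34.8 and 36.6 RPKM at normal phosphate. It lay lower in every low phosphate library of its genotype and fell by 0.50 in OX3 (limma adjusted p = 0.000466) and by 0.55 in the wild type (limma adjusted p = 0.000221). AT5G09760 fell by 0.59 in OX3 and by 0.69 in the wild type, and ATPMEPCRF by 0.53 in OX3 and by 0.59 in the wild type. PME3 (AT3G14310), an abundant enzyme that a cyst nematode effector is known to bind, fell by 0.21 in each genotype. It averaged 164 ± 9.25 RPKM in OX3 at low phosphate against 190 ± 9.24 RPKM in OX3 at normal phosphate, and 159 ± 2.69 RPKM in the wild type at low phosphate against 184 ± 0.491 RPKM in the wild type at normal phosphate.

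Root hair markers moved in the same direction as the members that rose. The summed level of the 4 root hair markers COBL9, RHD6, EXPA7 and PRP3 was 79.3 to 98.6 RPKM in OX3 at low phosphate against 33.1 to 39.7 RPKM in OX3 at normal phosphate. In the wild type it was 74.2 to 125 RPKM at low phosphate against 32.4 to 38.7 RPKM at normal phosphate. All 4 rose in both genotypes, none was at 0, and their part in the changes of the pectinesterases was not tested. Of 5 endodermis markers, 5 rose in OX3 and 4 in the wild type, and their sums at low phosphate were 173 to 188 RPKM in OX3 and 162 to 200 RPKM in the wild type, against 118 to 134 RPKM in OX3 and 122 to 172 RPKM in the wild type at normal phosphate. Both stele markers rose in each genotype, with a sum of 32.8 to 36.3 RPKM in OX3 at low phosphate against 23.9 to 25.8 RPKM in OX3 at normal phosphate, and 32.4 to 33.5 RPKM in the wild type at low phosphate against 23.9 to 27.9 RPKM in the wild type at normal phosphate. Of 3 root cap markers, 0 were called in OX3 and 2 rose in the wild type. Their sum was 6.96 to 7.49 RPKM in OX3 at low phosphate against 5.48 to 6.32 RPKM in OX3 at normal phosphate, and 8.24 to 9.4 RPKM in the wild type at low phosphate against 4.05 to 6.08 RPKM in the wild type at normal phosphate. The part of these 3 lists was not tested either.

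Of the 23 genes named pectinesterase alone, 9 were tested. Among these, 1 rose and 2 fell in OX3, and 1 rose and 4 fell in the wild type. PME1 (AT1G53840), the most abundant of them, averaged 33.4 ± 1.96 RPKM in OX3 at low phosphate against 27.8 ± 0.656 RPKM in OX3 at normal phosphate, and 36.2 ± 0.968 RPKM in the wild type at low phosphate against 30.3 ± 0.173 RPKM in the wild type at normal phosphate. It rose by 0.25 in each genotype. PME31 (AT3G29090) fell by 0.37 in OX3 and by 0.47 in the wild type, and PME53 by 0.48 in OX3 and by 0.52 in the wild type. PME10 had a change of -0.35 in OX3 that did not pass (limma adjusted p = 0.0866), and it fell by 0.64 in the wild type (limma adjusted p = 0.00404). AT3G47670 is named as a pectinesterase but holds only the inhibitor domain in the table, and it fell by 0.40 in the wild type and had -0.17 in OX3, which did not pass.

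The choice by wording left out 51 genes that hold the inhibitor domain, while 8 members hold it, so most such genes are not described here. The only inhibitor of pectinesterases tested among the 5 of the set was AT3G17225. It had 1.72, 1.87 and 2.93 RPKM in OX3 at low phosphate, against 3.95, 3.59 and 3.55 RPKM in OX3 at normal phosphate. At low phosphate wild-type roots had 2.85, 2.79 and 3.28 RPKM, against 2.02, 2.38 and 3.07 RPKM at normal phosphate. The OX3 groups did not overlap, and the wild-type groups did. It fell by 0.58 in OX3 (limma adjusted p = 0.00348), and its change of 0.20 in the wild type did not pass (limma adjusted p = 0.284). The difference between the 2 responses was -0.78, the lowest of the 86 members on this scale, and did not pass over all genes (limma adjusted p = 0.61, unadjusted p = 0.00159). Because 8.14% of its 50-base stretches occur elsewhere in the genome, its count may share reads with other genes.

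Of the 26 pectate lyases, 17 were tested. Among these, 3 rose and 7 fell in OX3 and 5 rose and 5 fell in the wild type, with medians of -0.12 in OX3 and 0.03 in the wild type. AT4G24780 (chromosome 4, 12770221 to 12772479) alone held 53.9% of the class in OX3 at normal phosphate and 51.6% in the wild type at normal phosphate. It had 122, 131 and 127 RPKM in OX3 at low phosphate, against 402, 374 and 359 RPKM in OX3 at normal phosphate. Its wild-type levels were 115, 116 and 103 RPKM at low phosphate, against 314, 305 and 278 RPKM at normal phosphate. The groups were far apart in both genotypes, and the gene fell by 1.57 ± 0.07 (SE) in OX3 (limma adjusted p = 1.53e-10) and by 1.42 ± 0.07 in the wild type (limma adjusted p = 4.55e-10).

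AT1G04680 had 43, 45.6 and 39.4 RPKM in OX3 at low phosphate, against 110, 94.1 and 93.5 RPKM in OX3 at normal phosphate. Wild-type libraries had 41.5, 42.5 and 42 RPKM at low phosphate, against 88.8, 85.3 and 81.5 RPKM at normal phosphate. Every low phosphate library lay below every normal phosphate library, and the gene fell in both genotypes (limma adjusted p = 3.69e-09 in OX3 and 2.4e-08 in the wild type). AT1G67750 fell by 1.32 in OX3 and by 0.98 in the wild type, and AT3G27400 by 1.21 in OX3 and by 0.96 in the wild type. AT4G13710 fell by 0.75 in OX3 and by 0.38 in the wild type. AT3G53190, at 30.2 ± 2.17 RPKM in OX3 at low phosphate against 41.3 ± 3.05 RPKM in OX3 at normal phosphate, fell by 0.44 in OX3, and its change of -0.15 in the wild type did not pass.

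Other lyases rose. RHS14 (AT4G22080), whose name stands for root hair specific and which shares 3.57% of its 50-base stretches with other loci, had 7.08, 8.07 and 6.55 RPKM in OX3 at low phosphate, against 2.73, 2.92 and 2.48 RPKM in OX3 at normal phosphate. The wild type had 9.18, 5.52 and 7.94 RPKM at low phosphate, against 2.21, 2.59 and 1.99 RPKM at normal phosphate. The groups did not overlap, and it rose by 1.15 in OX3 (limma adjusted p = 9.49e-06) and by 1.37 in the wild type (limma adjusted p = 1.58e-06). AT3G24670 rose by 0.40 in OX3 and by 0.69 in the wild type, and AT3G07010 by 0.60 in each. AT2G02730, which rose by 0.26 in the wild type alone, is named as a pectate lyase but holds another domain in the table and overlaps AT2G02720, so its class is uncertain. PMR6, a lyase-like protein needed for powdery mildew to grow on Arabidopsis, passed in neither genotype, at 0.22 in OX3 and 0.20 in the wild type.

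Of the 5 shoot markers, 3 moved with the lyases that fell. The summed level of RBCS1A, LHCB1.3, LHCB2.1, PSAD1 and CER1 was 167 to 196 RPKM in OX3 at low phosphate against 576 to 605 RPKM in OX3 at normal phosphate. In the wild type it was 147 to 170 RPKM at low phosphate against 367 to 424 RPKM at normal phosphate. RBCS1A and LHCB1.3 held most of each sum, at 218 and 344 RPKM in OX3 at normal phosphate. In each genotype 3 of the 5 fell and CER1 rose. LHCB2.1 was not called, at -0.45 in OX3 and 0.30 in the wild type. None of the 5 was at 0, and their part in the decrease of the lyases was not tested.

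**Figure D3:**
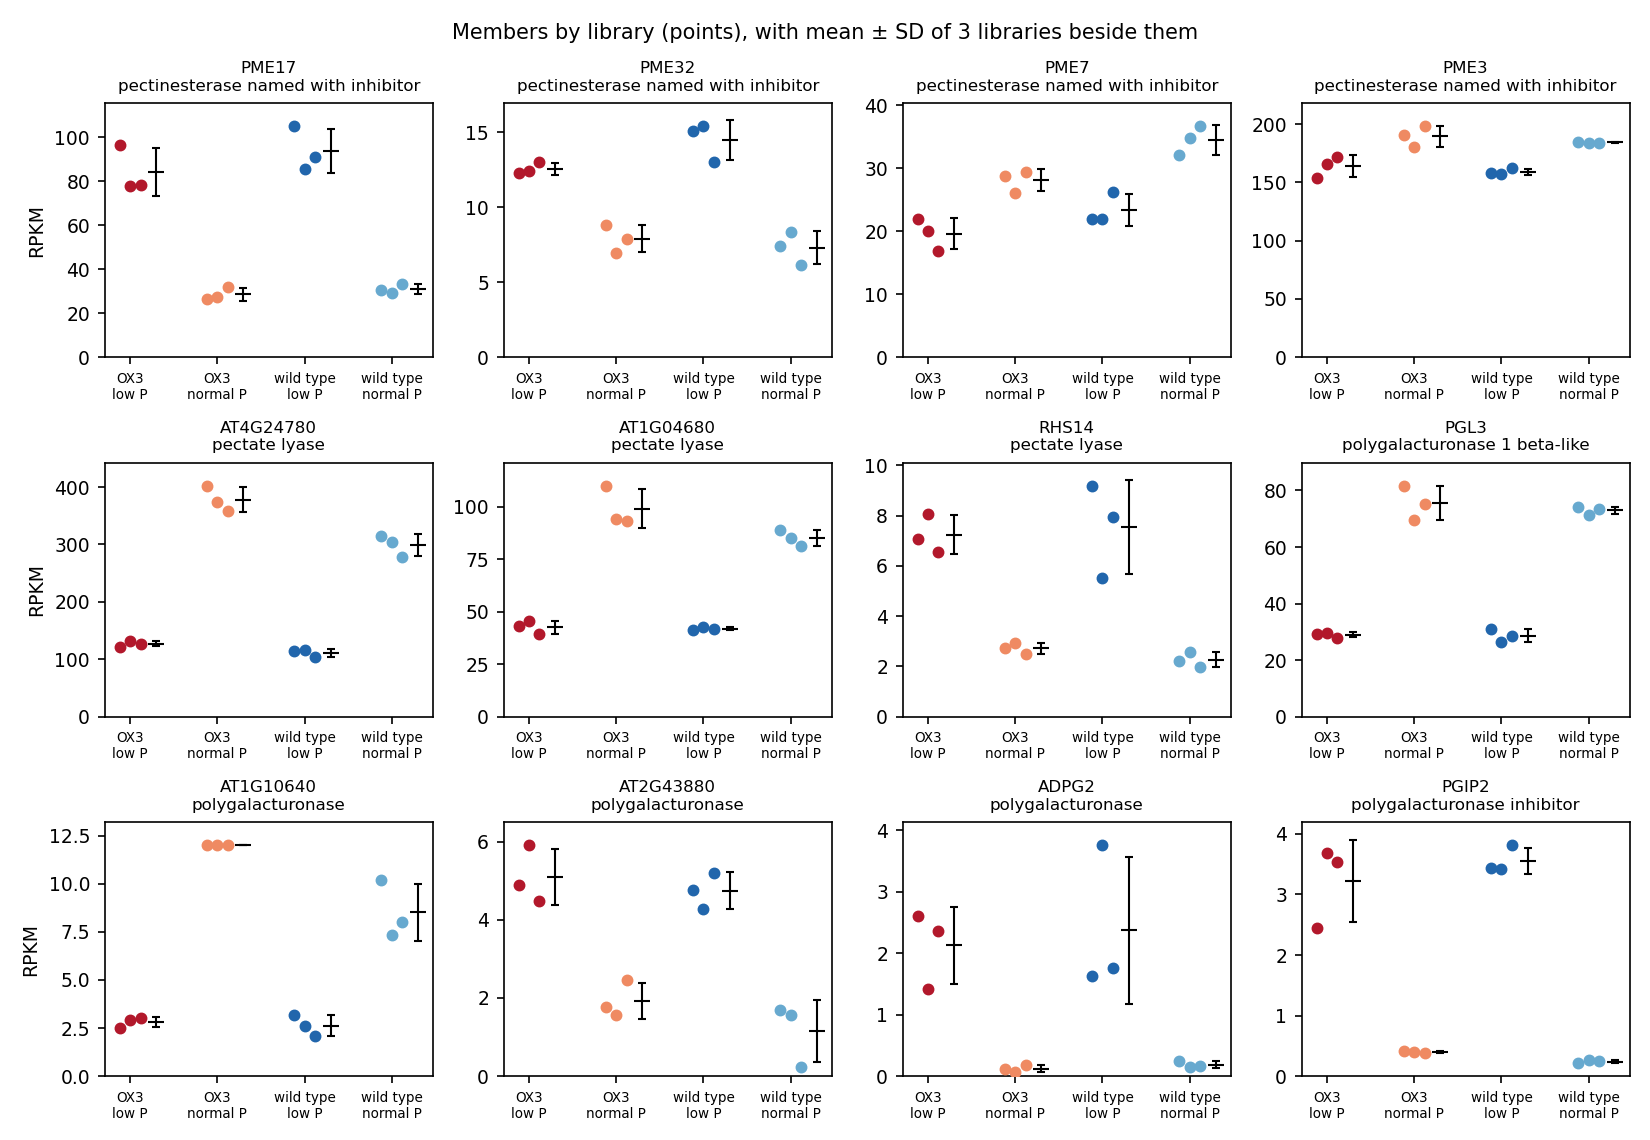
RPKM of 12 members (vertical axes, starting at 0) in the 12 libraries, OX3 left of the wild type and low phosphate left of normal phosphate. Points are libraries, and the bar beside them is the mean ± SD of 3. PME17, PME32, RHS14, AT2G43880, ADPG2 and PGIP2 were higher in every low phosphate library of their genotype, and PME7, PME3, AT4G24780, AT1G04680, PGL3 and AT1G10640 were lower.

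Polygalacturonases formed the largest class, with 29 of 53 tested. In OX3, 9 rose and 10 fell, and in the wild type 8 rose and 8 fell, with medians of -0.09 in OX3 and -0.00 in the wild type. AT1G10640 (chromosome 1, 3515182 to 3518035) was among those that fell in both genotypes. It had 2.5, 2.93 and 3.01 RPKM in OX3 at low phosphate, against 12 RPKM in each of the 3 OX3 libraries at normal phosphate. At low phosphate wild-type roots had 3.17, 2.58 and 2.1 RPKM, against 10.2, 7.35 and 8 RPKM at normal phosphate. The groups did not overlap, and it fell by 1.77 in OX3 (limma adjusted p = 2.28e-08) and by 1.40 in the wild type (limma adjusted p = 2.81e-07).

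AT3G26610, known as PGX1 and needed for cell expansion in seedlings, averaged 2.47 ± 0.214 RPKM in OX3 at low phosphate against 6.91 ± 0.815 RPKM in OX3 at normal phosphate. In the wild type it averaged 2.4 ± 0.61 RPKM at low phosphate against 7.2 ± 1.92 RPKM at normal phosphate. It fell by 1.19 in OX3 and by 1.26 in the wild type. AT4G23500 fell by 0.72 in OX3 and by 0.89 in the wild type, and AT3G62110 by 0.77 in OX3 and by 0.61 in the wild type. AT1G60590 averaged 0.298 ± 0.0882 RPKM in OX3 at low phosphate against 2.2 ± 0.251 RPKM in OX3 at normal phosphate. In the wild type it averaged 0.22 ± 0.14 RPKM at low phosphate against 1.34 ± 0.815 RPKM at normal phosphate. It fell in both genotypes, but its mean over all libraries was 1.01 RPKM and passed the minimum through normal phosphate alone. The most abundant polygalacturonase, AT3G16850, averaged 18.8 ± 1.25 RPKM in OX3 at low phosphate against 23.7 ± 0.269 RPKM in OX3 at normal phosphate and fell by 0.32. Its decrease of 0.18 in the wild type (limma adjusted p = 0.0302) was lost without low phosphate replicate 3 or 4 or normal phosphate replicate 2 or 3 of the wild type (limma adjusted p = 0.058 to 0.114).

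ADPG2 (AT2G41850), a polygalacturonase that acts in cell separation in abscission and pod dehiscence, had 2.6, 1.41 and 2.36 RPKM in OX3 at low phosphate, against 0.122, 0.06 and 0.172 RPKM in OX3 at normal phosphate. Its wild-type levels were 1.62, 3.75 and 1.75 RPKM at low phosphate, against 0.252, 0.148 and 0.162 RPKM at normal phosphate. All 6 libraries at normal phosphate lay at or under 0.252 RPKM, and all 6 at low phosphate at or above 1.41 RPKM. It rose by 1.46 in OX3 (limma adjusted p = 3.84e-05) and by 1.45 in the wild type (limma adjusted p = 4.01e-05). ADPG2 passed the minimum of 1 RPKM through its low phosphate libraries alone.

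AT2G43880 had 4.89, 5.9 and 4.49 RPKM in OX3 at low phosphate, against 1.76, 1.57 and 2.45 RPKM in OX3 at normal phosphate. Wild-type libraries had 4.77, 4.27 and 5.2 RPKM at low phosphate, against 1.68, 1.55 and 0.242 RPKM at normal phosphate, with replicate 4 far below its group. It rose by 1.06 in OX3 (limma adjusted p = 0.00145) and by 1.49 in the wild type (limma adjusted p = 8.23e-05). Its neighbour on the chromosome, AT2G43870, rose by 1.26 in OX3 and by 1.14 in the wild type, and AT3G59850 by 1.01 in OX3 and by 1.13 in the wild type. In OX3 alone AT4G20040 rose by 0.45 and AT1G02460 by 0.61, with changes of 0.08 and 0.22 in the wild type that did not pass. The abundant AT5G14650 had changes of opposite sign in the genotypes and passed in neither, at 0.24 in OX3 and -0.30 in the wild type, although without wild-type low phosphate replicate 2 both passed, at 0.24 and -0.50. QRT2 and QRT3, which let pollen grains part from their tetrad, were detected in roots and were called in neither genotype.

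The 3 polygalacturonase 1 beta-like proteins are named after a tomato protein that binds polygalacturonase and is itself no enzyme. PGL3 and PGL2 fell in both genotypes, and PGL1 did not fall. PGL3 (AT1G70370, chromosome 1, 26512681 to 26515255) had 29.3, 29.6 and 27.9 RPKM in OX3 at low phosphate, against 81.6, 69.5 and 75.3 RPKM in OX3 at normal phosphate. The wild type had 30.9, 26.4 and 28.5 RPKM at low phosphate, against 74, 71.5 and 73.5 RPKM at normal phosphate. The groups lay far apart, and it fell by 1.35 in OX3 (limma adjusted p = 6.92e-10) and by 1.33 in the wild type (limma adjusted p = 8.44e-10). PGL2 fell by 0.82 in OX3 and by 0.99 in the wild type. PGL1 rose by 0.53 in OX3 (limma adjusted p = 0.00968), and its change of 0.30 in the wild type did not pass (limma adjusted p = 0.118). Without OX3 normal phosphate replicate 3 the change in OX3 was 0.43 and no longer passed (limma adjusted p = 0.051), and without wild-type low phosphate replicate 3 that in the wild type was 0.49 and passed (limma adjusted p = 0.0101).

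Polygalacturonase inhibitors rose. Of the 4, 3 were tested, and 2 were called higher in OX3 and 3 in the wild type, none lower. PGIP2 (AT5G06870, chromosome 5, 2133918 to 2135168), an inhibitor of fungal polygalacturonases, had 2.45, 3.69 and 3.53 RPKM in OX3 at low phosphate, against 0.41, 0.404 and 0.386 RPKM in OX3 at normal phosphate. At low phosphate wild-type roots had 3.43, 3.42 and 3.81 RPKM, against 0.21, 0.265 and 0.242 RPKM at normal phosphate. No library of 1 phosphate level reached the other, and PGIP2 rose by 1.58 in OX3 (limma adjusted p = 7.94e-08) and by 1.88 in the wild type (limma adjusted p = 1.3e-08). PGIP2 passed the minimum of 1 RPKM through its low phosphate libraries alone. AT2G15320 had 17.2, 16.7 and 18.4 RPKM in OX3 at low phosphate, against 11.8, 9.86 and 9.82 RPKM in OX3 at normal phosphate, and rose by 0.68 in OX3 and by 0.63 in the wild type. FLR1, a leucine-rich repeat protein first described as a partner of the flower regulator AGAMOUS, rose by 0.59 in the wild type and had 0.20 in OX3, which did not pass.

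The P1BS motif is the letters GNATATNC to which the phosphate starvation regulator PHR1 binds. It was looked up in 250 bases before to 50 after the start of each member, read from the TAIR10.1 genome of RefSeq, and since it is its own reverse complement 1 search covers both strands. It stood in 3 of the 21 members that rose in both genotypes (14.3%) and in none of the 21 that fell in both, against 7.14% of all 154 members and 6.13% of 37897 promoters of the genome. Among all tested genes that rose in both genotypes it stood in 10.7%. The 3 members are PME20, PME41 and AT3G15720. The stretches before the start of PME20 and PME41 are shown beside those of ATPMEPCRA and PMR6, which hold the motif and were called in neither genotype, so that the letters around it can be compared. Capitals mark the motif, each stretch is given 5′ to 3′ on the plus strand of TAIR10.1, which is the strand of all 4 genes, and positions are chr2:19508889-19508928, chr4:1032186-1032239, chr1:3888405-3888458 and chr3:20344574-20344627 in the order of the lines.
PME20: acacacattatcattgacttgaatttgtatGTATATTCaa
PME41: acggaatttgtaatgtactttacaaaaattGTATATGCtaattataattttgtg
ATPMEPCRA: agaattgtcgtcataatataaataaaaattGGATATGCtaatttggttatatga
PMR6: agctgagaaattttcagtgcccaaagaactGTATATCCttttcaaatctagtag
The motif begins 10 bases before the start in PME20, 134 in PME41, 175 in ATPMEPCRA and 181 in PMR6. A match is a description of letters and no evidence of binding, and in AT3G15720 the motif crosses the annotated start. Counted in the 250 bases before the start alone, it stood in 9.52% of the 21 members that rose in both, in 8.77% of all tested genes that rose in both and in 5.28% of all promoters.

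The genotype comparison asks which of these genes differ between OX3 and the wild type. With 1 transgenic line, an effect of GmVP2 cannot be told apart from other differences of that line. At normal phosphate 4 of the 86 members were called higher in OX3 and 0 lower, which is 4.65% against 3.1% of all tested genes, 1.37% higher and 1.73% lower. No member reached an absolute log2 difference of 1, which 0.0529% of all tested genes did. All 4 are pectate lyases, 4 of 17 tested in that class (23.5%). AT4G24780, described above, was 0.34 ± 0.07 (SE) higher in OX3 (limma adjusted p = 0.024). AT1G67750 had 35.4, 35.2 and 33.7 RPKM in OX3 at normal phosphate, against 30.3, 26 and 25 RPKM in the wild type at normal phosphate, a difference of 0.35 (limma adjusted p = 0.0319). AT4G13710 had 11.2, 8.96 and 9.98 RPKM in OX3, against 7.26, 8.29 and 6.64 RPKM in the wild type, a difference of 0.39 (limma adjusted p = 0.0403). AT5G48900 had 19.5, 17 and 18.7 RPKM in OX3, against 15.2, 14.1 and 13.6 RPKM in the wild type, a difference of 0.34 (limma adjusted p = 0.0409). In each of the 4 genes all 3 OX3 libraries lay above all 3 wild-type libraries. Of the 86 members, 19 were higher without overlap and 10 lower, against 32.8% of all tested genes, 17.7% higher and 15.1% lower. The median difference of the 17 lyases was 0.19, against 0.04 for all 86 members and 0.02 for all tested genes.

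These 4 calls rest on few libraries. Without any 1 of the 3 OX3 libraries at normal phosphate, or without replicate 3 or 4 of the wild type at normal phosphate, none of the 4 passed, with differences of 0.29 to 0.47 and limma adjusted p of 0.0578 to 0.175. Without the minimum of 1 RPKM none passed either, and without OX3 low phosphate replicate 4 the count of members called was 7, where 1032 of all tested genes (5.46%) were called. The shoot marker sum at normal phosphate was 576 to 605 RPKM in OX3 against 367 to 424 RPKM in the wild type. RBCS1A and LHCB1.3 were called higher in OX3, by 0.58 and 0.62. The rest of the list was not called, at 0.42 for LHCB2.1, 0.24 for PSAD1 and -0.15 for CER1. The part of the shoot markers in the lyase differences was not tested.

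At low phosphate 0 of the 86 members were called between OX3 and the wild type with limma. Of all tested genes 0.0423% were called, 0.0159% higher and 0.0264% lower. An unadjusted p below 0.05 was reached by 10 of the 86 members and by 2787 of all 18910 tested genes. With limma voom on the recovered reads the count of members called was also 0. It was 2 without wild-type low phosphate replicate 2, where 196 of all tested genes (1.04%) were called. The lowest p belonged to the polygalacturonase AT4G23500, with 13.1 ± 0.714 RPKM in OX3 against 11 ± 0.492 RPKM in the wild type, a difference of 0.23 (limma adjusted p = 0.18, 95% confidence interval 0.10 to 0.36). PME41 had 14 ± 0.684 RPKM in OX3 against 17.2 ± 1.7 RPKM in the wild type, a difference of -0.28 (limma adjusted p = 0.202). AT4G24780 differed by 0.19 (limma adjusted p = 0.254), with a 95% interval of 0.05 to 0.33. For the other 3 lyases called at normal phosphate the differences at low phosphate were 0.01 to 0.03, with 95% intervals within -0.18 and 0.22.

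**Figure D4:**
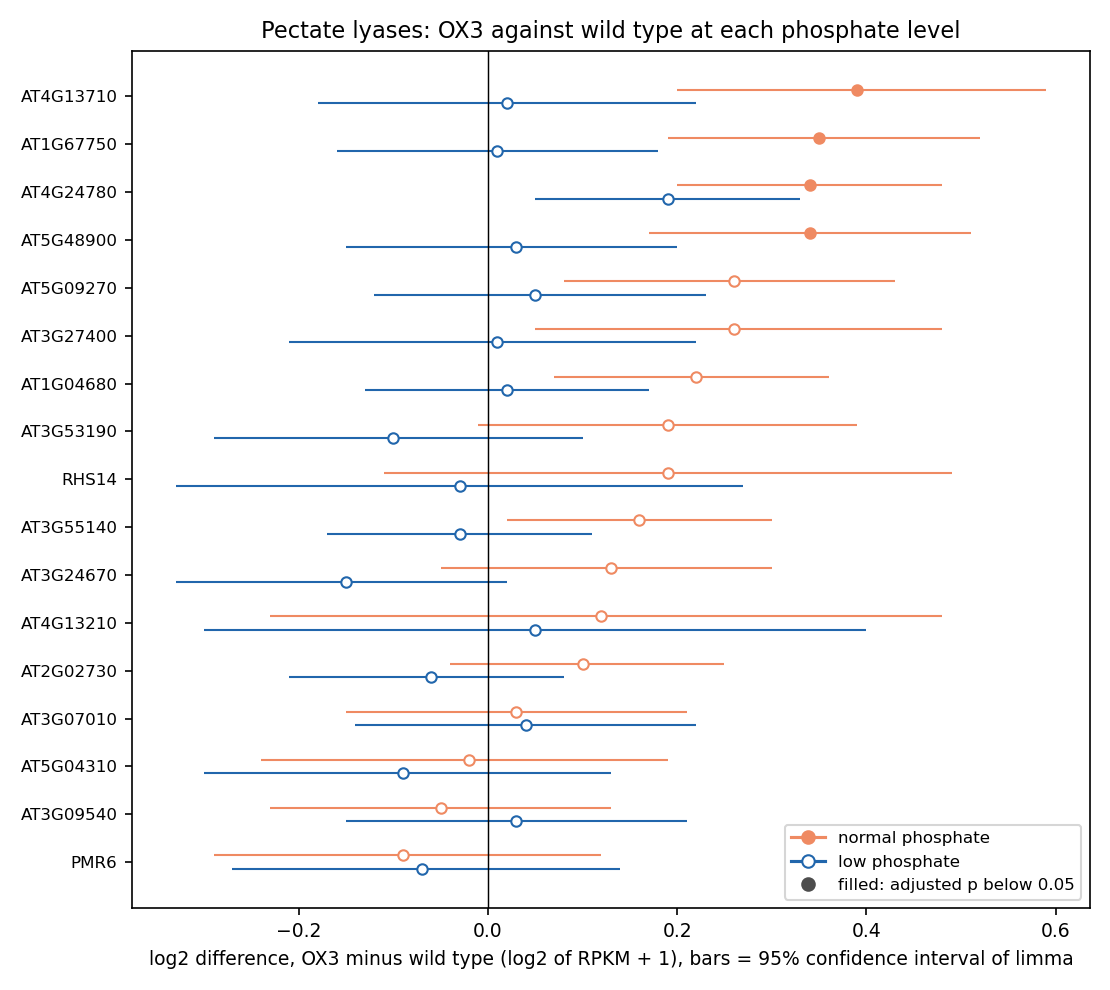
Log2 difference of OX3 minus wild type (horizontal axis) for the 17 tested pectate lyases (rows), at normal phosphate above and at low phosphate below in each row, with 95% confidence intervals of limma. Filled points passed the adjusted threshold. The 4 filled points, all at normal phosphate, lie between 0.34 and 0.39, and the low phosphate points of the 17 genes lie between -0.15 and 0.19.

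The difference between the responses, low against normal phosphate in OX3 minus the same in the wild type, called 0 of the 86 members and 0 of all 18910 genes with limma. At an unadjusted p below 0.05 there were 13 members, 5 of them pectate lyases, and 1351 genes in all, and limma voom called 0 members too. After AT3G17225 the lowest p belonged to AT1G67750, with a difference of -0.34 (limma adjusted p = 0.623), and the next to AT5G14650, with 0.55 (limma adjusted p = 0.64). AT5G14650 had 19.1, 18.5 and 17 RPKM in OX3 at low phosphate against 15.5, 14.6 and 15.6 RPKM in OX3 at normal phosphate. Its wild-type levels were 19.7, 11.3 and 14.6 RPKM at low phosphate against 17.1, 19.4 and 19.2 RPKM at normal phosphate, so that its wild-type groups overlapped.

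Genes that make or otherwise trim pectin were counted beside the members. Over all tested genes, 47% were called in OX3 and 46% in the wild type, which is the background for these counts. Of 18 tested homogalacturonan synthesis genes (GAUT, QUA and CGR), 3 rose and 2 fell in OX3 and 5 rose and 0 fell in the wild type, with medians of 0.01 in OX3 and 0.12 in the wild type. The methyltransferase CGR3 was the most significant, at 0.25 in OX3 (limma adjusted p = 0.00165) and 0.31 in the wild type (limma adjusted p = 0.000239). Of 8 rhamnogalacturonan synthesis genes, 1 rose and 2 fell in OX3 and 2 rose and 2 fell in the wild type. GALS2, a galactan synthase, had 17.4 ± 1.69 RPKM in OX3 at low phosphate against 9.75 ± 0.742 RPKM in OX3 at normal phosphate and rose by 0.77 in OX3 and 0.87 in the wild type, while GALS1 fell by 0.28 in OX3 and by 0.30 in the wild type. Of 5 tested enzymes that supply UDP-galacturonate, 1 rose in each genotype and none fell, GAE2 in OX3 and GAE1 in the wild type.

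Of 14 tested genes for pectin acetylesterases and rhamnogalacturonan lyases, 3 rose and 3 fell in OX3 and 6 rose and 2 fell in the wild type. PAE11, a pectin acetylesterase, had 84.7 ± 3.54 RPKM in OX3 at low phosphate against 40.8 ± 3.24 RPKM in OX3 at normal phosphate, and it rose by 1.04 in OX3 (limma adjusted p = 1.92e-08) and 1.05 in the wild type (limma adjusted p = 1.61e-08). Its relative PAE10 fell by 1.14 in OX3 and by 0.75 in the wild type. Among 3 tested receptors that bind or sense the wall, WAK4 fell by 0.82 in OX3 and by 1.08 in the wild type, THE1 fell by 0.40 in OX3 and by 0.28 in the wild type, and FER was not called. No gene of these lists was called between OX3 and the wild type at either phosphate level.

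The 68 members under 1 RPKM held few reads in most libraries. Summed over these 68 genes, a library of OX3 held 131 to 212 reads, and a wild-type library held 107 to 346 reads. The highest was replicate 4 at low phosphate, with reads in 43 of the 68 genes against 22 to 30 in the other 11 libraries. These members include genes known for pollen, such as PME5 (also VANGUARD1), PME48 and AT59.

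**Figure D5:**
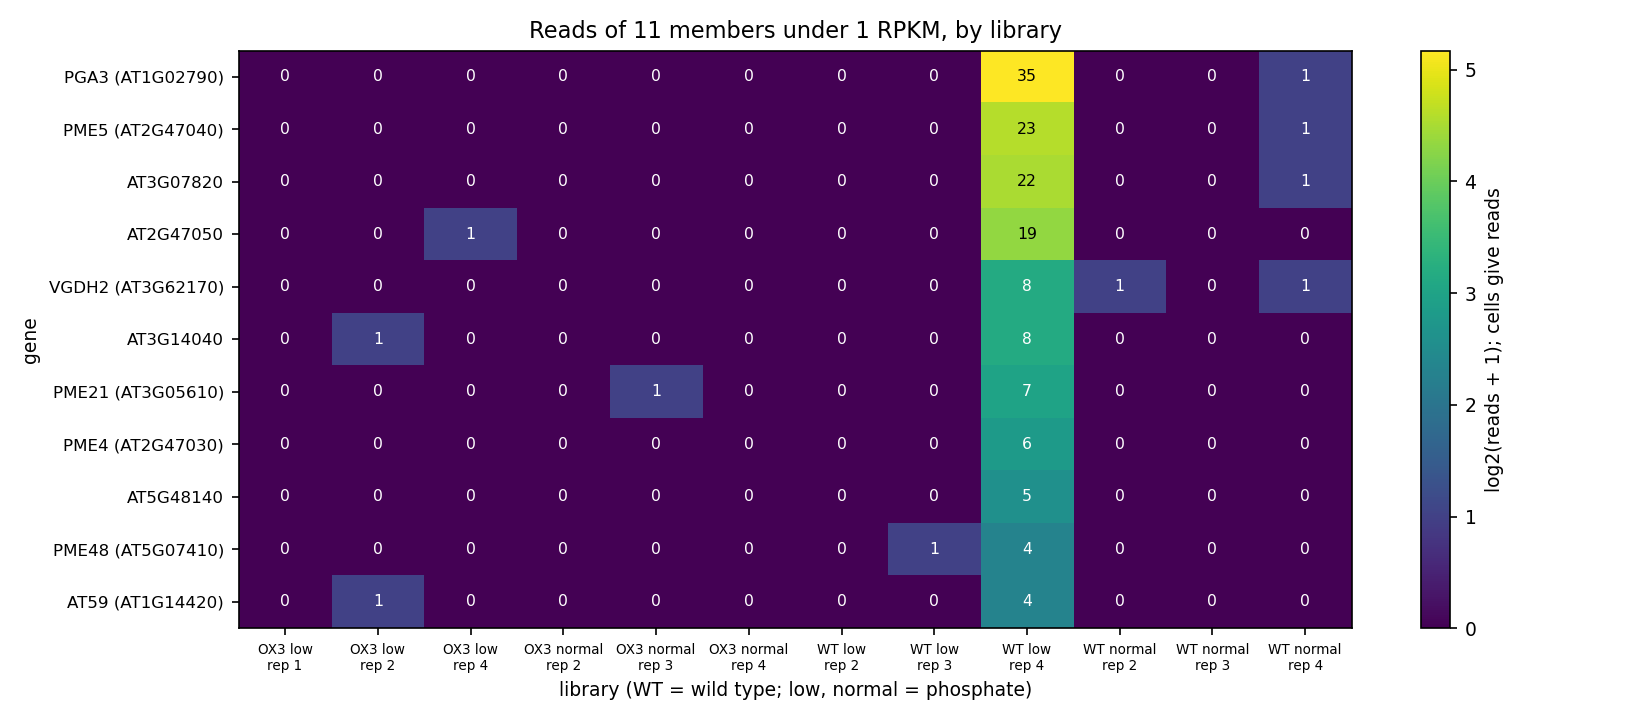
Reads (number in each cell, colour as log2 of reads + 1) of the 11 members under 1 RPKM with at least 5 reads of which at least 80% were in 1 library, by gene (rows) and library (columns). The column of wild-type low phosphate replicate 4 holds 141 reads, and the other 11 columns together hold 10.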

How the data were processed

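Expression was measured by RNA sequencing in 12 root libraries, 3 in each of 4 groups. Per the labels' protocols, total RNA was purified with a CTAB-PBIOZOL reagent and libraries were made with a BGI kit. The authors deposited 1 table of RPKM values. The tool HTSeq 0.6.0 and the build TAIR10 appear per the submitters' processing notes, which give no role for either. The sources used here do not state whether the kit kept strand. Whole reads were recovered from the RPKM of 98.5% of the genes at the length of their exons and of 100% at some length, within 0.01 of a read. All 154 members have the coordinates of TAIR10.1.

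Each gene was tested on log2(RPKM + 1) by limma (version 3.58.1, R 4.3.3, trend option on), with 1 fit of all 12 libraries, a minimum mean of 1 RPKM and Benjamini-Hochberg adjustment over 18910 genes. Within groups, libraries varied beyond counting noise, at a chi-square of 2.63 to 10.8 for each degree of freedom. Classes were read from the wording of the protein description, not from domains. Named members are, per class, the 3 most abundant tested and the 4 highest and 4 lowest changes among called members in each response, all called between genotypes, and otherwise the 3 of smallest p in the comparison. Others were named after their values were seen. The members and gene lists were chosen with earlier results of these data known. Alternatives were median-ratio size factors, no minimum, a pseudocount of 0.1, the replicate number as a block, a minimum change, the 2 groups alone, limma voom on recovered reads and leaving out each library. Promoters were read from the genome, in windows of 250 bases before to 50 after the start.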

Additional observations from a re-analysis of the deposited data

Results flagged for a closer look

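Reads of weakly expressed members stood out in 1 wild-type library. Of 47 members under 1 RPKM with at least 5 reads in all, 11 had at least 80% of them in replicate 4 of the wild type at low phosphate, 141 reads there and 10 in the other 11 libraries together. This is a signal in genes outside every comparison that applied the minimum of 1 RPKM, and it was picked out after the values were seen. By the same rule 27 of 4918 genes under the minimum, 0.549%, lay mostly in that library, against 23.4% of the members, and each of the other 11 libraries held 0 to 2 such genes and 0 members. PGA3 had 35 reads there and 1 elsewhere, PME5 had 23 and 1, AT3G07820 had 22 and 1, and AT2G47050 had 19 and 1. Counts this low carry counting error, and the source of these reads was not tested.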

How the results depend on the processing

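Of 1707 recomputed log2 changes of named members, 1611 kept their direction and their side of the threshold, 86 no longer passed, 7 newly passed and 3 changed sign. The 3 belong to ATPMEPCRA, which was called nowhere and ranged over -0.08 to 0.04 in the wild type and -0.06 to 0.10 in OX3 with 1 library left out: 0.04 without wild-type low phosphate replicate 2, 0.03 without wild-type normal phosphate replicate 4, and -0.06 in OX3 without OX3 low phosphate replicate 4. A minimum absolute log2 change of 1 left 15 members in OX3 (7 higher, 8 lower), 13 in the wild type (8 higher, 5 lower) and 0 between genotypes at normal phosphate, 0 of them pectate lyases. Leaving out 1 library at a time gave 46 to 54 members called in OX3 (23 to 27 higher, 23 to 27 lower) and 48 to 56 in the wild type (25 to 28 higher, 23 to 28 lower). Of all tested genes, the same settings called 40.9% to 49.4% in OX3 and 40.8% to 46.6% in the wild type.

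Between OX3 and the wild type at normal phosphate the 4 calls, all pectate lyases, varied with the setting. There were 0 with no filter on low values and 8 with the 2 groups alone (3 lower), and 1 member was lower with median-ratio size factors and 1 with limma voom. Over all genes the same comparison called 587, against 152 with no filter and 1087 with the 2 groups alone. Leaving out 1 library gave 0 to 7 members (0 to 6 higher, 0 to 1 lower) and 0 to 4 pectate lyases, while the count over all genes ran between 8, without OX3 normal phosphate replicate 4, and 1059, without wild-type normal phosphate replicate 2. At low phosphate it gave 0 to 2 (0 to 1 higher, 0 to 1 lower), and the difference of responses gave 0 to 0.

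Whether the replicate numbers pair samples is not known. Deviations from the group mean correlated at -0.143 to 0.0761 for samples with the same number and at -0.186 to 0.233 for other pairs. These values cannot decide it, since deviations within a group of 3 balance out. With the replicate block, 2 members, both pectate lyases, were called between genotypes at normal phosphate, and 225 genes in all. OX3 low phosphate replicate 1, the only library numbered 1, is fitted exactly there. Depth limits members under about 0.170 RPKM, where a gene of 1 kb has 3 reads or fewer.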

Other observations

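Members that lie side by side on a chromosome were compared by their calls. Within 10 kb of each other lay 27 pairs of members, 24 of them of 1 class, and in 6 pairs both genes were tested. In 3 of those 6, both genes were called in the same direction in OX3 and in the wild type, and in none in opposite directions. Shared calls were not counted for other neighbouring genes, and 47% of all tested genes were called in OX3 and 46% in the wild type. These few pairs therefore do not show that neighbours respond together. The 3 pairs are the polygalacturonases AT2G43870 and AT2G43880 and the pectinesterases PME24 with PME25 and PME59 with PME60, all higher at low phosphate. PME60 rose by 0.47 in OX3 and 0.55 in the wild type, and PME25 by 0.51 in OX3 and 0.36 in the wild type. Of the 50-base stretches of PME60, 1.23% occur elsewhere in the genome, and PME59 has a similar share, so reads of these neighbours may not be fully told apart.

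Without the minimum of 1 RPKM, 6 of the 68 members under it were called in OX3 (3 higher, 3 lower) and 6 in the wild type (5 higher, 1 lower), which is 8.82% in each genotype. Of all 7031 genes under the minimum, 13.3% were called in OX3 (6.54% higher, 6.77% lower) and 13.1% in the wild type (7.24% higher, 5.83% lower), so the members' share was no larger. PME35 had 0.868 RPKM in OX3 at low phosphate against 0.274 RPKM in OX3 at normal phosphate, and 0.725 RPKM in the wild type at low phosphate against 0.217 RPKM in the wild type at normal phosphate. Its log2 change was 0.55 in OX3 (limma adjusted p = 0.000212) and 0.50 in the wild type (limma adjusted p = 0.000409). PME8 went the other way, with 3 reads over the 3 OX3 libraries at low phosphate against 46 at normal phosphate, and 6 against 24 in the wild type. AT1G48100, known as PGX3 and active in stomata and seedling growth, had 60 reads in OX3 at low phosphate against 152 at normal phosphate, a log2 change of -0.61 (limma adjusted p = 0.0164).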
